A study of Homo sapiens with 2 samples.

Results

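The 8 E2F transcription factor genes E2F1 to E2F8, their dimer partner TFDP1 (DP1) and the retinoblastoma gene RB1 were described in cisplatin treated breast cancer cells labelled as control and FZR1 ko. These 10 genes were taken by name, from their Entrez gene IDs, and all 10 were found among the 23033 genes with a value. Control cells (genotype WT) and FZR1 ko cells, both labelled T-47D and both treated with 2 µg/mL cisplatin, a DNA crosslinking drug, gave 1 library each. FZR1 (CDH1) is a co-activator of the APC/C ubiquitin ligase, and the FZR1 ko line was made with CRISPR/Cas9 and single cell cloning, so it stands for a single clone. The time in cisplatin was not given for the RNAseq, and untreated cells were not analysed here. With 1 library per condition no difference has a replicate check, so no test was made and no error can be given. The unit is FPKM, which corrects the fragments of a gene for its length and for the size of the library, and the depth behind them is unknown.

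E2F factors bind DNA as dimers with a DP partner and control the genes that take cells from G1 into S phase. RB1 binds the activator E2Fs and blocks them until cyclin dependent kinases phosphorylate it. E2F1, E2F2 and E2F3 are activators, E2F4 and E2F5 act mainly as repressors together with the RB1 relatives RBL1 (p107) and RBL2 (p130), E2F6 represses without pocket proteins, and E2F7 and E2F8 are atypical repressors that bind DNA without a DP partner. In breast cancer the RB1 to E2F axis is known as the target of CDK4/6 inhibitors.

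E2F1, E2F7 and E2F8 were each lower by more than 2-fold in FZR1 ko than in control, while RB1 was higher by close to 2-fold in FPKM and E2F5 by 1.80-fold. The FPKM of E2F1 was 83.4 in control and 38.8 in FZR1 ko, that of E2F8 25.1 and 9.91, and that of RB1 5.81 and 11.6. Each log2 ratio sets FPKM + 1 of FZR1 ko over FPKM + 1 of control. A gene was counted as differing 2-fold once this ratio reached 1 or -1, and 13554 genes were kept because either library had 1 FPKM or more. All 10 genes passed this filter. Lower in FZR1 ko were 6 of them and higher 4, 3 were at least 2-fold lower and 0 were at least 2-fold higher. Over all genes kept, 13.5% differed at least 2-fold, 6.72% lower and 6.78% higher in FZR1 ko. With the minimum raised to 5 FPKM, which all 10 genes passed, the shares were 12.6% in all, 6.41% lower and 6.21% higher. The median log2 ratio of the 10 genes was -0.29, against -0.0048 over all genes kept. In such bulk RNA, fewer cells in a phase of the cell cycle and less mRNA per cell cannot be told apart.

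Several facts of the libraries stand beside these values. FZR1 had 12.3 FPKM in control against 10.1 in FZR1 ko (log2 ratio -0.26); its mRNA was thus still measured, and the lesion in the gene and the FZR1 protein were not measured here. Of 9 luminal markers, 5 were below 1 FPKM in both libraries, ESR1, PGR, GATA3, CDH1 and KRT19, which T-47D cells are known to express, while KRT8 and KRT18 were high. CDH1 here is the E-cadherin gene (Entrez gene 999) and not FZR1 (Entrez gene 51343), whose protein shares that name. The summed FPKM of the 9 markers was 1398 in control and 1752 in FZR1 ko, nearly all of it from KRT8 and KRT18, while the other markers kept, FOXA1 and TFF1, had log2 ratios of -0.10 and -0.34. Of 5 basal and mesenchymal markers, the basal keratins KRT5 and KRT14 were below 1 FPKM in both libraries. The 3 kept had a median of -0.093. VIM was high in both libraries, with 315 FPKM in control against 295 in FZR1 ko, KRT17 had 103 and 55.8 FPKM, and CDH2 2.97 and 15.3 FPKM. Whether the identity of the cells has a part in the E2F values was not tested.

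**Figure D1:**
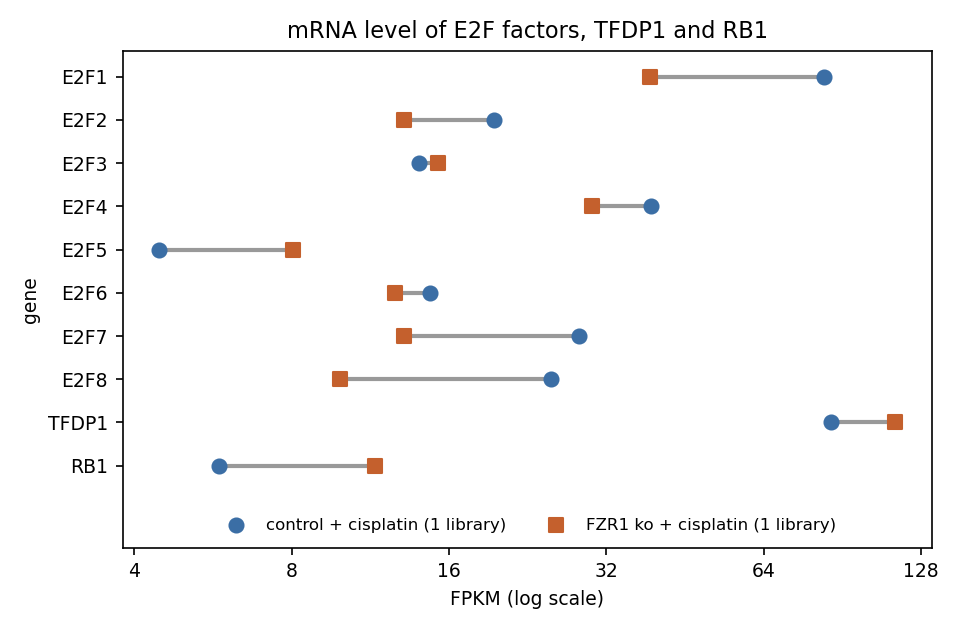
FPKM of each gene (log scale) in the control library (circles) and the FZR1 ko library (squares), both with cisplatin and 1 library each. The lines of E2F1, E2F7 and E2F8 run furthest towards lower values in FZR1 ko, and those of RB1 and E2F5 towards higher values.

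The activators differed from each other. E2F1 (Entrez gene 1869, chromosome 20 from 33675477 to 33686385 on GRCh38), the founding member of the family, which can drive both S phase entry and apoptosis, had the highest FPKM of the E2F genes in both libraries, 83.4 in control and 38.8 in FZR1 ko. Its FPKM was 2.15-fold lower in FZR1 ko (log2 ratio -1.09), and 5.40% of all genes kept had a lower ratio. E2F2 (gene 1870, chromosome 1 from 23505212 to 23531233), a second activator induced at the G1/S border, had 19.5 and 13.1 FPKM, a log2 ratio of -0.54 that does not reach 2-fold. E2F3 (gene 1871, chromosome 6 from 20401879 to 20493714), which makes a cell cycle regulated and a more constant isoform from separate starts, was nearly level, with 14.0 and 15.3 FPKM (0.12). The table has a single value per gene, so the isoforms of E2F3 could not be separated. In all, the 3 activators summed to 117 FPKM in control against 67.2 in FZR1 ko, and E2F1 made up most of this sum in both.

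The atypical repressors E2F7 and E2F8 were both lower in FZR1 ko. These factors are themselves made under the control of E2F1 and limit its activity in S and G2 phase, both are known substrates of APC/C with FZR1 at the protein level, and E2F7 is also a known p53 target. E2F7 (gene 144455, chromosome 12 from 77021251 to 77065569) had 28.4 FPKM in control against 13.1 in FZR1 ko (log2 ratio -1.06). E2F8 (gene 79733, chromosome 11 from 19224063 to 19241655) had 25.1 and 9.91 FPKM (-1.26), the lowest ratio of the 10 genes, and 3.46% of all genes kept had a lower one. The pair summed to 53.5 FPKM in control against 23.0 in FZR1 ko, 2.32-fold lower. This fold is larger than that of the activators, whose sum was 1.74-fold lower, so the quotient of activators to atypical repressors was 2.19 in control and 2.92 in FZR1 ko. The quotient of activators to the repressors E2F4 and E2F5 went the other way, at 2.69 and 1.76.

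The other repressors stayed closer to their control level, except E2F5. E2F4 (gene 1874, chromosome 16 from 67192155 to 67198918), which carries p130 and p107 to promoters in quiescent cells, had 39.0 FPKM in control against 30.0 in FZR1 ko (log2 ratio -0.37). E2F5 (gene 1875, chromosome 8 from 85177154 to 85214518), a partner of p130, was the lowest of the E2F genes in both libraries, but had 4.47 FPKM in control against 8.06 in FZR1 ko (0.73). Its annotated span overlaps that of RBIS, a protein-coding gene with 34.5 and 30.9 FPKM, so reads of E2F5 are less certain. E2F6 (gene 1876, chromosome 2 from 11444375 to 11466161), which represses as part of a polycomb complex, had 14.7 and 12.6 FPKM (-0.20). RefSeq also lists 4 pseudogenes of E2F6, 3 of TFDP1, 2 of E2F3 and 1 of E2F4, none of which has a row here, so reads shared with them could not be followed. Of the genes overlapping other members, LOC101928163 (at E2F2) had 0.56 and 1.31 FPKM and LPAR6 (at RB1) 0.19 FPKM in both libraries, and whether the counting used strand is not given in the sources used here.

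RB1 and TFDP1, both on chromosome 13, were higher in FZR1 ko. RB1 (gene 5925, from 48303751 to 48481890), the pocket protein that holds activator E2Fs inactive, had 5.81 FPKM in control against 11.6 in FZR1 ko, a ratio of 1.99 in FPKM and a log2 ratio of 0.88 with the pseudocount. Of all genes kept, 8.99% had a higher ratio. Its level was low in both libraries next to E2F1, whose FPKM was 14.4 times that of RB1 in control and 3.35 times in FZR1 ko. TFDP1 (gene 7027, from 113584688 to 113641473), the main dimer partner of E2F1 to E2F6, had the highest FPKM of the 10 genes, 86.1 in control and 114 in FZR1 ko (0.41). A higher ratio than that of TFDP1 was held by 26.0% of all genes kept. As the E2F sum was lower and TFDP1 higher, TFDP1 came to 0.377 of the summed E2F FPKM in control and 0.812 in FZR1 ko.

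The summed FPKM of the 8 E2F genes was 229 in control and 141 in FZR1 ko, 1.62-fold lower. E2F1 made up 36.5% of this sum in control and 27.5% in FZR1 ko. The share of E2F7 and E2F8 together was 23.4% in control and 16.3% in FZR1 ko, while that of E2F4 and E2F5 was 19.0% and 27.0%. The latter share rose because the total fell, as E2F4 and E2F5 themselves summed to 43.4 FPKM in control and 38.1 in FZR1 ko. The whole activator class held a similar share, 51.2% and 47.7%, with E2F3 at 6.13% and 10.8%. The order of the levels also narrowed. The highest E2F gene, E2F1, was 18.7 times the lowest, E2F5, in control and 4.81 times in FZR1 ko. This range rests on the low value of E2F5, whose reads are less certain as given above. E2F8 went from the fifth place of the 10 genes to the ninth.

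**Figure D2:**
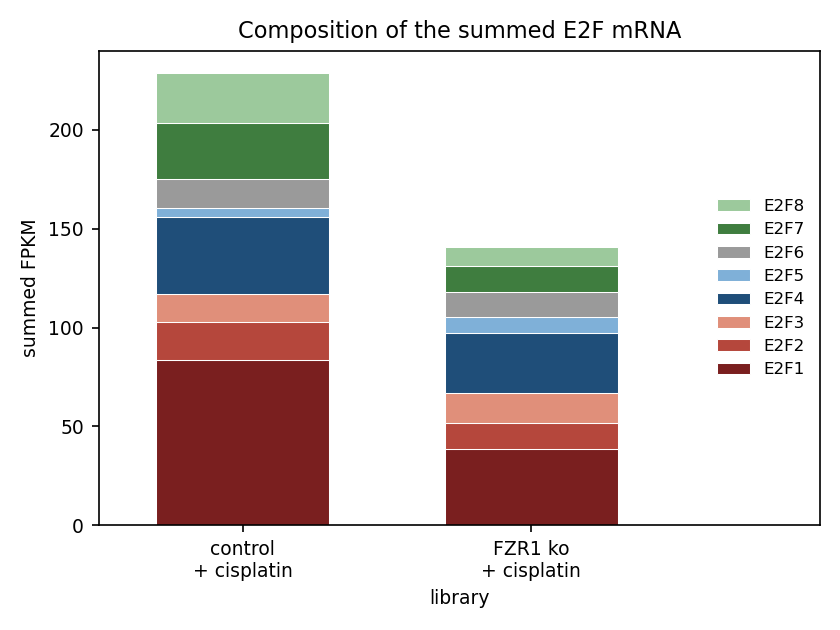
Summed FPKM of the 8 E2F genes (vertical axis, from 0) in each library, stacked by gene. The bar is 229 FPKM high in control and 141 FPKM in FZR1 ko, and the segments of E2F1, E2F7 and E2F8 shrink most.

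The promoters of these genes were read for E2F letters, as planned for all 10 genes, since E2F factors are known to act on promoters of their own family. The RefSeq promoter table of GRCh38.p14 (the assembly of hg38) has windows for 8 of the 10 genes, not E2F5 and E2F8, and its only RB1 window lies 172699 bases inside the gene, so it was left out. The letters TTTCCCGC, TTTCGCGC, TTTGGCGC and TTTGCCGC were searched on both strands, and 3.31% of all 35116 windows hold at least 1 of them. They were found in E2F1, E2F2, TFDP1 and in the upstream of the 2 windows of E2F3, and not in E2F4, E2F6 or E2F7. The stretches around them, 5′ to 3′ on the strand of the gene, with these letters or their reverse complement in capitals, lie at chr20:33686386-33686438 (minus), chr1:23531248-23531295 (minus), chr6:20401806-20401853 (plus) and chr13:113584613-113584660 (plus) and read:
E2F1: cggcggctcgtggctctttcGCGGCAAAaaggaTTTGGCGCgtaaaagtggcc
E2F2: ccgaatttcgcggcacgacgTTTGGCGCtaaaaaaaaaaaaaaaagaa
E2F3: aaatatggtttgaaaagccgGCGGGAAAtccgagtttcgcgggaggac
TFDP1: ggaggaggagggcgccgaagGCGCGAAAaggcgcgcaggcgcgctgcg

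E2F1 was the only member with 2 such matches, in opposite orientations, starting 33 and 20 bases before its start. The match of E2F2 began 42 bases, that of E2F3 53 bases and that of TFDP1 120 bases before the start, counted from the transcript start of each window. These 4 genes went different ways, with log2 ratios of -1.09, -0.54, 0.12 and 0.41. E2F7, also lower, had none of the E2F letters, but 4 copies of CCAAT, the letters bound by NF-Y, all in the reverse complement. These letters occur in 34.6% of all windows, and E2F3, which was nearly level, also has 4 copies and E2F1 has 3. The copies nearest to the start of E2F7 begin 86 and 54 bases before it, and they stand in capitals in the stretch at chr12:77065599-77065818 (minus):
E2F7: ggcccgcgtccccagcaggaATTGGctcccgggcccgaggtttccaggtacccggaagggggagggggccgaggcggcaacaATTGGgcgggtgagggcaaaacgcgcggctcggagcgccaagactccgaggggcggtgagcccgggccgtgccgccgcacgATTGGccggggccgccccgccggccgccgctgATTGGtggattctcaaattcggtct

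The E2F letters were then set against the ratios of all genes. Of the 13554 genes kept, 10354 have a promoter window, and 693 of them (6.69%) have these letters. Those 693 genes had a median log2 ratio of -0.027, with 6.64% at least 2-fold lower and 5.19% at least 2-fold higher in FZR1 ko. The 9661 genes without them had a median of 0.011, with 5.61% lower and 6.26% higher. A match of letters is a description and not a site that was shown to be bound.

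The genes that E2F factors are known to switch on for S phase went both ways. Of 54 such genes, all of them kept, 27 were lower and 27 higher in FZR1 ko, with log2 ratios from -1.63 to 1.41 and a median of 0.037. Their summed FPKM was 3650 in control and 3226 in FZR1 ko. The E2F letters stand in the windows of 26 of the 48 genes that have one (54.2%), whose median was 0.21, against -0.078 for the genes without them. At least 2-fold lower were 4 genes (7.41%) and higher 2 (3.70%), against 6.72% and 6.78% over all genes kept. The cyclins CCNE2 and CCNE1, which start S phase with CDK2, had 77.3 and 56.7 FPKM in control against 24.3 and 22.9 in FZR1 ko (log2 ratios -1.63 and -1.27). ORC6, a subunit of the origin recognition complex, had 99.6 and 32.1 FPKM (-1.60), and the histone chaperone ASF1B 239 and 118 FPKM (-1.01). At least 2-fold higher were POLA1, the catalytic subunit of DNA polymerase alpha, with 3.01 FPKM in control against 9.63 in FZR1 ko (1.41), and the primase PRIM1, with 11.1 and 25.0 FPKM (1.11). Both belong to the same polymerase alpha and primase complex. The genes nearest to the median were TYMS, thymidylate synthase, with 194 FPKM in both libraries, and CHAF1B with 23.6 and 25.0 FPKM.

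A list of 30 G2/M genes, which depend more on the MuvB complexes than on activator E2Fs, held 0 genes that differed at least 2-fold, where 13.5% of all genes kept did. In it 18 genes were lower and 12 higher in FZR1 ko, with a median of -0.17, and the log2 ratios ran from -0.88 (UBE2C) to 0.71 (BUB1B). KIF20A and CDC20, nearest to the median, had 35.3 and 80.2 FPKM in control against 31.4 and 70.5 in FZR1 ko.

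The relatives of RB1 were followed in a list with the other DP partners and the MuvB subunits, which also holds MYBL2, the B-MYB factor that joins MuvB in cycling cells, and DYRK1A, a kinase of the MuvB subunit LIN52. None of the 10 genes kept of 11 differed at least 2-fold on this scale, against 13.5% of all genes kept, a share that leaves little to read from so few genes. Of the 10, 4 were lower and 6 higher, and the median was 0.056. MYBL2, with 126 FPKM in control against 203 in FZR1 ko (log2 ratio 0.69), held most of the list's summed FPKM. Without MYBL2 and DYRK1A, 4 genes were lower and 4 higher with a median of -0.045, and with a minimum of 5 FPKM the median of the list was also -0.045, so its sign depends on the genes kept. RBL1, which is also among the S phase genes, had 2.92 FPKM in control against 6.64 in FZR1 ko (log2 ratio 0.96), and RBL2 5.64 and 6.11 FPKM (0.10). With RB1, the pocket protein genes summed to 14.4 FPKM in control against 24.3 in FZR1 ko, of which RB1 made up 40.4% and 47.6%. RBBP4, a histone binding subunit of MuvB, had 29.8 and 30.1 FPKM, and TFDP3, a DP gene of limited expression, was listed at 0 in both.

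Upstream of RB1, the genes for its kinases and their inhibitors formed separate lists. Of 7 CDK inhibitors 6 were lower in FZR1 ko, 3 of them at least 2-fold, where 6.72% of all genes kept were, and the median was -0.60, against -0.0048 over all genes kept. CDKN1A (p21), which holds CDK2 inactive and is induced by p53, had 319 FPKM in control against 77.2 in FZR1 ko (log2 ratio -2.03). CDKN2D (p19INK4D) had 17.3 and 3.61 FPKM (-1.99), and CDKN2B (p15INK4B) 55.2 and 13.3 FPKM (-1.97), both inhibitors of CDK4 and CDK6. Their relatives CDKN2A and CDKN2C were nearly level, with 240 and 51.9 FPKM in control against 249 and 48.9 in FZR1 ko (0.053 and -0.084). CDKN1B (p27), at the median, had 43.0 and 28.1 FPKM. Among the 7 G1 cyclins and kinases kept of 8, 5 were lower and 2 higher, with a median of -0.16. At least 2-fold lower were 2 (28.6%) and higher 1 (14.3%), against 6.72% and 6.78% over all genes kept, in a list of few genes. Besides the E cyclins, CDK6, an RB1 kinase, differed at least 2-fold, with 4.02 FPKM in control against 11.9 in FZR1 ko (1.36), while the related CDK4 had 152 and 135 FPKM (-0.16).

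A list of ubiquitin ligases that act on E2F factors, with their subunits and regulators, includes FZR1 itself. Of its 8 genes 6 were lower and 2 higher, with a median of -0.22. At least 2-fold lower was 1 (12.5%), against 6.72% over all genes kept, and it is a regulator and not a ligase. FBXO5 (EMI1), the inhibitor of APC/C with FZR1 and itself an E2F target, had 51.6 FPKM in control against 24.2 in FZR1 ko (log2 ratio -1.06). CDC20 and FZR1, both APC/C co-activators, were nearest to the median.

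The remaining partners and targets were assigned by role. In the PRC1.6 complex of E2F6, 9 of 12 genes were higher, none at least 2-fold (13.5% of all genes kept were past it in either direction), with a median of 0.17, and HDAC2 and MGA near it had 17.6 and 5.75 FPKM in control against 19.8 and 6.67 in FZR1 ko. The 6 germline genes that E2F6 keeps silent were all below 1 FPKM in both libraries, the highest value being 0.33 FPKM. Of 10 chromatin and transcription partners of RB1, 8 were higher and 2 lower, with a median of 0.20. ID2, an inhibitor of bHLH factors that RB1 binds, had 28.4 FPKM in control against 4.36 in FZR1 ko (-2.45), the lowest ratio in these lists. SMARCA4 (BRG1), a chromatin remodeller, had 12.9 and 34.3 FPKM (1.35), and RBBP7 and HDAC1, near the median, had 107 and 79.3 FPKM in control against 121 and 92.8 in FZR1 ko.

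Apoptosis genes described as E2F1 targets were followed as a separate list of 17, of which 15 were kept. In FZR1 ko 10 were lower and 5 higher, with a median of -0.13, which was -0.37 with a minimum of 5 FPKM. At least 2-fold lower was 1 (6.67%) and higher 1 (6.67%), near the 6.72% and 6.78% over all genes kept. PMAIP1 (NOXA), also a p53 target, had 128 FPKM in control against 26.4 in FZR1 ko (log2 ratio -2.23), and MAP3K5 (ASK1), a stress kinase, had 1.01 and 3.22 FPKM (1.07). TP73, the p53 relative that E2F1 is known to induce, was below 1 FPKM in both, at 0.18 and 0.62 FPKM. BIK, at the median, had 13.2 and 12.0 FPKM.

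**Figure D3:**
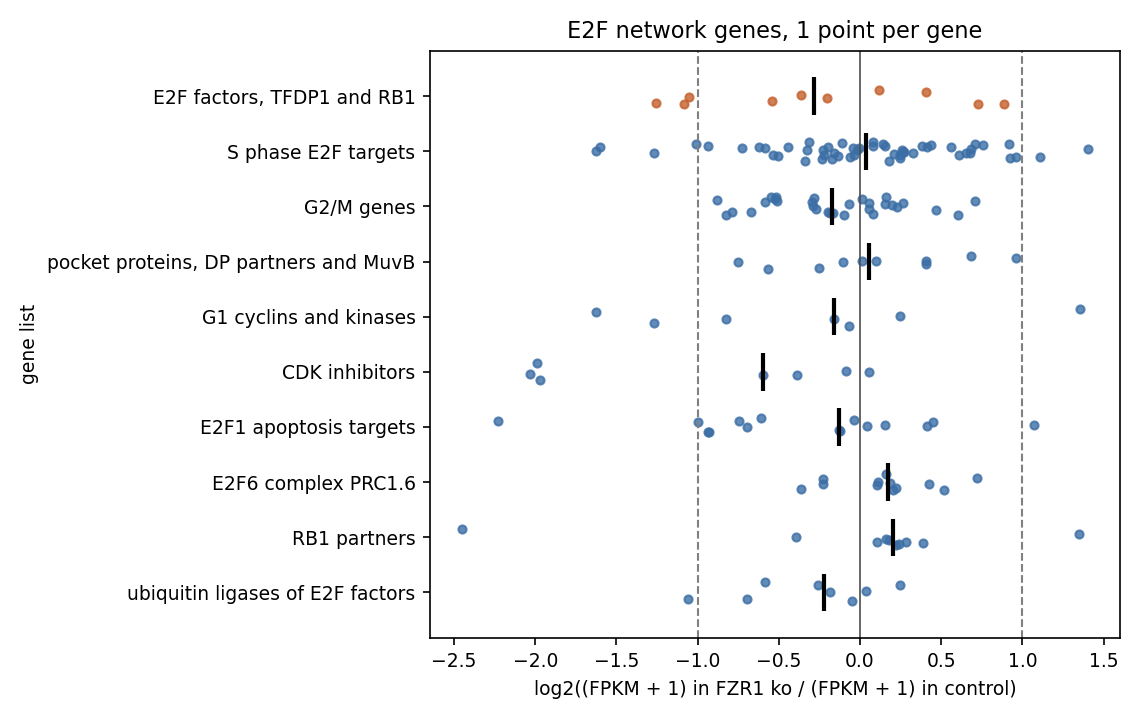
log2 ratio of FPKM + 1 (FZR1 ko over control, horizontal axis) of each gene kept (points) by gene list, with the median of the list (black bar) and the 2-fold limits (dashed). The S phase targets spread to both sides of 0 with a median of 0.037, while the median of the CDK inhibitors lies at -0.60.

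The direction of all 10 genes was the same under each of the 9 other settings of pseudocount, filter and scaling that were tried. This was largely fixed in advance, since no pseudocount or filter can change the direction of a gene. The largest scaling, -0.042 in log2, is small next to the ratio nearest to 0, that of E2F3 (0.12). The settings thus say nothing of how the values would repeat in other libraries. E2F1 ranged from -1.11 to -1.01 and E2F8 from -1.34 to -1.01, past 2-fold in each. E2F7 was short of 2-fold with a pseudocount of 5 FPKM, at -0.88, and RB1 ranged from 0.62 to 0.99, short of 2-fold in each.

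**Figure D4:**
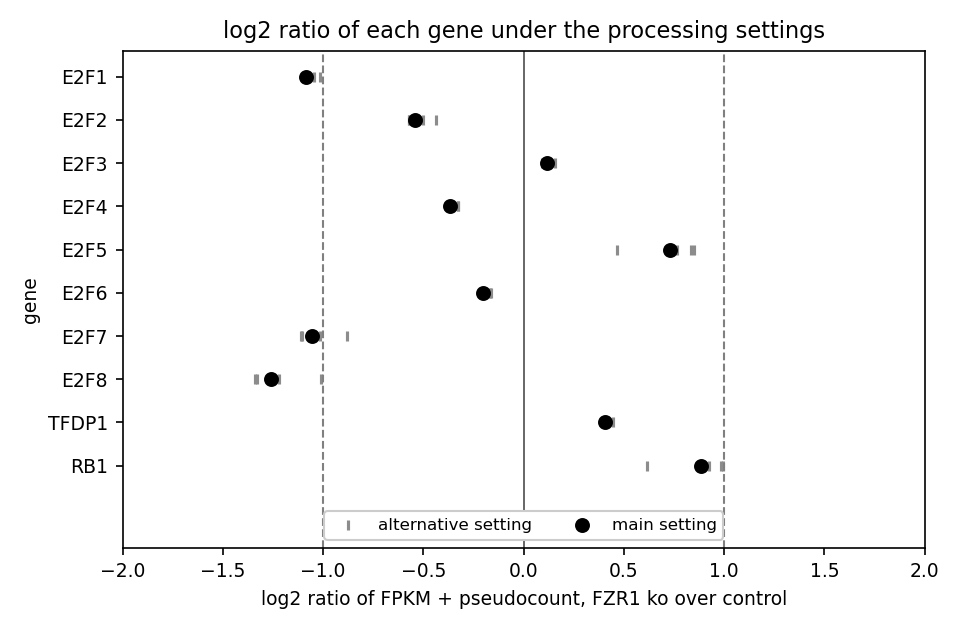
log2 ratio of FPKM + pseudocount (FZR1 ko over control) of each gene in the main setting (black circles) and under the alternative settings (grey ticks), with the 2-fold limits (dashed). No gene changes sides of 0, which no pseudocount or filter could bring about, and E2F7 alone crosses a 2-fold limit.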

How the data were processed

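RNA was read on a BGISEQ-500 sequencer, as 2 libraries. The authors aligned the reads with Bowtie2, quantified them with RSEM on an hg38 reference from UCSC and deposited FPKM per Entrez gene ID, rounded to 2 decimals. Per the labels the tools were Trimmomatic 0.36, HISAT2 2.1.0, Bowtie2 2.2.5 and RSEM, while the paper's methods print another version of Bowtie2. The release of the gene annotation and the filters are not given in the sources used here. The file holds no counts, so depth and counting intervals are unknown, and low values are the least certain. The value column named for a guide against FZR1 was taken as FZR1 ko, and the other, named for cisplatin alone, as control. Every direction rests on this match. Of 24663 rows, 1630 have no value. Gene symbols came from RefSeq (GRCh38.p14) and matched 22925 of 23033 IDs (99.5%). The FPKM sums were 502589 in control and 500488 in FZR1 ko.

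A pseudocount of 1 FPKM was used, which understates the ratio of low genes. The computation was tested on simulated data. The members and gene lists were chosen with earlier results of these data known. From each list the genes past 2-fold and those nearest the median were named. RBL1, TFDP3, MYBL2, DYRK1A, TP73, UBE2C, BUB1B, CDKN2A, CDKN2C and the overlapping genes were also named in the text, after their values were seen. The planned motif search in proteins was not made, since protein sequences were not used here. Ratios and medians were computed with pandas 2.3.3 and numpy 2.4.6 under Python 3.11.15, and plots were drawn with matplotlib 3.10.9.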

Additional observations from a re-analysis of the deposited data

How the results depend on the processing

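Of 253 values recomputed under alternative settings, 233 kept their direction and stayed on their side of the 2-fold limit or within 1.5 times. Many of these could not differ, since a filter leaves the ratio of a gene unchanged and a pseudocount keeps its direction. The 1.5 times allowed for a median also exceeds the size of most of these medians. The share is therefore no measure of how well the results would repeat. Among the 10 genes, E2F7 was at -0.88 with a pseudocount of 5 FPKM. At a 1.5-fold threshold 5 genes passed, 2 of them higher (RB1 and E2F5), and at 4-fold 0 passed, 0 of them lower. The genes passing in all, lower and higher, numbered 1830, 911 and 919 at first, 4827, 2387 and 2440 at 1.5-fold, 150, 89 and 61 at 4-fold, and 453, 270 and 183 when 5 FPKM was added. When 0.1 FPKM was added 2818 passed, 1460 of them higher. Such changes follow from the construction of threshold and pseudocount. With a minimum of 5 FPKM, a setting chosen after seeing the data like the one without a pseudocount, 1211 of fewer genes passed, 596 of them higher, and the median of the pocket protein list was -0.045 in place of 0.056, as fewer of its genes were kept. It was also -0.045 without MYBL2 and DYRK1A, likewise chosen after seeing the data. The median of the E2F1 apoptosis targets was -0.37 in that setting and -0.13 at first, with a range from -0.37 to -0.091 over all settings. Dividing FZR1 ko by 0.971, the median ratio of genes of at least 10 FPKM, moved none of the 10 genes across 2-fold, and gave 846 genes lower and 1013 higher among all genes. No paired analysis was possible because control and FZR1 ko are 1 library each, so neither could be left out in turn. The protein motif search was not run.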

Other observations

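The letters of the CHR element, TTTGAA, through which MuvB complexes are known to bind G2/M genes, were searched in the same promoter windows on both strands. They occur in 15.2% of all windows, in 13.0% of the genes kept that have a window, and in 15 of the 24 G2/M genes that have one (62.5%). The median log2 ratio of those 15 genes was -0.19, against -0.17 for the G2/M genes without the letters. That of all 1347 genes kept with the letters was 0.075, against 0 for the 9007 genes without them. CCAAT stood in 21 of the 24 genes (87.5%), against 43.1% of all genes kept with a window. The median of the 21 was -0.27, against 0.011 for the other 3, too few for a comparison. Over all genes kept with a window, the median was -0.0055 with CCAAT and 0.018 without it. Of the 10 genes described here, E2F3 alone has TTTGAA in its window, 65 bases before the start, among the 7 genes whose windows were read.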
